A study of Mus musculus with 2084 samples.

Results

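Cells labelled neurogenic striatal astrocyte are striatal cells that carry genes of the neurogenic lineage. Here they were set against the lineage of the ventricular-subventricular zone (vSVZ) of the same letter, to see which lineage stage each cell is closest to and which genes still separate the regions at a matched stage. Members were chosen by letter, time and cell type label. They are the 27 neurogenic striatal cells of letter pJ taken 2 days after ischemia, and 188 vSVZ cells of the same letter and time, labelled qNSC2 (67 cells, quiescent neural stem cells), aNSC (24, activated stem cells), TAP (21, transit-amplifying progenitors) and neuroblast (76). These 215 cells are part of 1981 cells used in all. A letter marks a biological replicate of 1 or more mice, so each of these groups is 1 sample, and a difference between them has no replicate check.

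All cells of pJ at 2 days have the genotype TiCY-IFN(A/G)R KO: TiCY mice that lack interferon receptors. In TiCY mice tamoxifen starts Cre in stem cells that express Tlx (Nr2e1) and leaves eYFP on in them and their progeny. Mice were 2 months old at tamoxifen and had both carotid arteries occluded 2 weeks later. Letter pI, of genotype TiCY and also taken 2 days after ischemia, holds 6 further neurogenic striatal cells and 5 qNSC2. Naive cells came from pJ (genotype IFN(A/G)R KO) and pM (TiCY). They hold the 4 vSVZ types (31, 7, 9 and 8 cells in pJ and 39, 13, 8 and 15 in pM for qNSC2, aNSC, TAP and neuroblasts), striatal astrocytes (35 in pJ, 131 in pM) and vSVZ astrocytes (79 in pJ, 114 in pM). At 2 days pJ also holds 82 striatal and 36 vSVZ astrocytes. Cells were sorted from single or pooled mice with antibodies that include GLAST, and the region of a cell was read from the name of its sort, as the tissue label names both regions. Of the 27 cells, 23 carry the sort name KO1 and 4 carry KO2, which the labels do not explain and which no vSVZ cell carries. Region, sort and library therefore cannot be told apart within pJ at 2 days.

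In the adult rodent vSVZ, quiescent stem cells share most of their genes with astrocytes. On activation they switch on EGF receptor and ribosome genes, divide as transit-amplifying progenitors and give neuroblasts that express Dcx and Dlx genes and migrate to the olfactory bulb. The striatum beside the vSVZ makes few or no neurons in healthy adult mice, but after stroke or loss of Notch signalling some of its astrocytes are known to enter a neurogenic programme. Stem cells of the vSVZ also carry a code of patterning transcription factors, such as Pax6, Dlx and Zic genes, that marks their place along the ventricle wall.

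The start regions of 3 genes are shown: a neighbouring pair at 0 in every neurogenic striatal cell, and a gene of neuroblasts that was called against qNSC2. Six3, a homeodomain transcription factor of the forebrain and eye, and Six3os1, a long noncoding RNA on the opposite strand, had no count in any neurogenic striatal cell, a difference from qNSC2 that did not pass the test. Dlx6os1, a long noncoding RNA on the opposite strand of Dlx6, was called higher than in qNSC2. The sequences are RefSeq's on GRCm38.p6, from 250 bases before the start of the gene to 50 after it, 5′ to 3′ on the strand of the gene. They lie at chr17:85620584-85620883 (plus strand), chr17:85618347-85618646 (minus strand) and chr6:6869484-6869783 (minus strand). Starts differ between annotations. In GENCODE M21 Six3 starts at chr17:85613608 and Dlx6os1 at chr6:6871592, outside these windows. Capitals mark CCAAT on either strand (ATTGG on the other strand) in the first pair and TAATTA, the core letters that many homeodomain proteins bind, in Dlx6os1.
Six3: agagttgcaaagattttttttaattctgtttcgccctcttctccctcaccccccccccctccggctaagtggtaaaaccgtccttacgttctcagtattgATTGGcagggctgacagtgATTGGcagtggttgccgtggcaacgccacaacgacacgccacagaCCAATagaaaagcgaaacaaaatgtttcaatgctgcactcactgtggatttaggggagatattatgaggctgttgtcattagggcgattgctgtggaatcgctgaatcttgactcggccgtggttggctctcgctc
Six3os1: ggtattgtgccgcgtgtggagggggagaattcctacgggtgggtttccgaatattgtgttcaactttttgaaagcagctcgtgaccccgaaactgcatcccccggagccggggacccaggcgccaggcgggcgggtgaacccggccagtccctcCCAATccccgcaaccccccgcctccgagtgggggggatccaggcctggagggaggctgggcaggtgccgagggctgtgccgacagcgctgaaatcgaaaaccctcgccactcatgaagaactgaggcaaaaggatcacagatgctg
Dlx6os1: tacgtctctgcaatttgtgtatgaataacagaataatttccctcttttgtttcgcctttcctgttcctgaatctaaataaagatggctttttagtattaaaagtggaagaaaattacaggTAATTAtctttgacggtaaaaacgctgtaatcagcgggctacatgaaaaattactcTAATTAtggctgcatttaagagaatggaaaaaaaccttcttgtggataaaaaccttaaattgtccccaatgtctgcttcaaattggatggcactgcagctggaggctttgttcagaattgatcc
The RefSeq start sites of Six3 and Six3os1 lie 2438 bases apart. The Six3 window holds 3 CCAAT matches and 14 CpG, the Six3os1 window 1 CCAAT match and 20 CpG, and CCAAT is found in 37.4% of all 32851 start windows of that length. The Dlx6os1 window, the first of 2 entries for that gene, holds 2 TAATTA matches and 5 CpG, and TAATTA is found in 5.29% of windows. A match describes these letters and is not a binding site.

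The 27 cells held a median of 105063 counts (4924 to 184846), against medians of 133820 in qNSC2, 175783 in aNSC, 175746 in TAP and 139259 in neuroblasts. Mitochondrial genes took a median of 0.687% of counts in neurogenic striatal cells, against 0.165%, 0.306%, 0.17% and 0.194% in the 4 vSVZ types. Thinned to 50000 counts, a neurogenic striatal cell had a median of 5299.5 genes (24 cells deep enough), against 4722, 5407, 5660 and 3990. The gap in genes per cell between striatal and vSVZ astrocytes of pJ was smaller in naive mice than at 2 days: thinned cells had 5340 genes in striatal and 4256 in vSVZ astrocytes of pJ at 2 days, and 3422 and 3231 in naive pJ. Markers of other cell types were set beside qNSC2, without a test. Summed over each list, the level was 6.80 CPM (counts per 1e6 counts) for endothelial, 6.43 for microglial, 26.8 for ependymal, 31.8 for pericyte and 47.6 for oligodendrocyte markers, against 21.3, 62.3, 310, 39.0 and 88.4 CPM in qNSC2. The highest cell reached 112, 32.6, 196, 266 and 609 CPM, and 6 of 9, 8 of 10, 4 of 11, 6 of 8 and 10 of 16 genes of these lists were at 0. The mature neuron list summed to 286 CPM in neurogenic striatal cells (highest cell 1600; 4 of 10 genes at 0) and 128 CPM in qNSC2, the striatal neuron list to 140 (highest cell 994; 7 of 13 at 0) and 117, and the oligodendrocyte precursor list to 105 (highest cell 2230; 2 of 8 at 0) and 121. These lists also differed between vSVZ types. In aNSC, TAP and neuroblasts the mature neuron list summed to 270, 170 and 273 CPM. The striatal neuron list summed to 55.1, 137 and 310 CPM there, the oligodendrocyte precursor list to 430, 188 and 355, and the ependymal list to 26.6, 2.85 and 9.61. The part of depth, sort and these markers in the results below was not tested.

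Counts per gene checked the genotype only in part, since they do not show which exons remain. Ifngr1, a chain of the interferon gamma receptor, stood at 0.378 CPM in neurogenic striatal cells and at 0 to 3.13 CPM in the 4 vSVZ types of pJ. In pI, whose genotype label names no receptor knockout, it stood at 18.5 CPM in neurogenic striatal cells and 10.2 CPM in qNSC2. Ifnar1, a chain of the type I interferon receptor, had 49.1 CPM in neurogenic striatal cells of pJ and 46.6 CPM in those of pI. In qNSC2 it had 16 CPM in pJ and 69.4 CPM in pI, and in the other vSVZ types of pJ 11.8 to 37.2 CPM. Nr2e1, which drives Cre in TiCY mice, had counts in 16 of 27 cells and 175 CPM in neurogenic striatal cells, against 368, 113, 86.6 and 0 CPM in qNSC2, aNSC, TAP and neuroblasts. Slc1a3, which encodes the sorted antigen GLAST, had 1180 CPM in neurogenic striatal cells, in 24 of 27 cells, against 2180, 1080, 98.8 and 12.4 CPM.

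Set against the 4 vSVZ types alone, cells with the neurogenic striatal label of pJ fell to all 4 stages and not to a single stage. Striatal astrocytes were not among the types a cell could be closest to, so nearness to them was not tested per cell. Correlated over 10838 genes on the log2(CPM + 5) scale, with 5 CPM added to keep low values stable, 11 of 27 cells were closest to qNSC2 (40.7%, exact 95% interval 22.4 to 61.2), 4 to aNSC (14.8%, 4.19 to 33.7), 6 to TAP (22.2%, 8.62 to 42.3) and 6 to neuroblasts (22.2%). The best correlation of a cell was 0.339 to 0.523 among those closest to qNSC2 and 0.606 to 0.670 among those closest to TAP. Assigned in the same way with the cell itself left out of its type, 61 of 67 qNSC2, 22 of 24 aNSC, 20 of 21 TAP and 76 of 76 neuroblasts were closest to their own label. The 23 cells of sort KO1 split 10, 2, 5 and 6 over the stages and the 4 cells of KO2 split 1, 2, 1 and 0. In pI, 5 of the 6 neurogenic striatal cells were closest to aNSC, 1 to qNSC2 and 0 to TAP or neuroblasts. Labels may rest on these same transcriptomes, so agreement with a label describes the labelling.

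**Figure D1:**
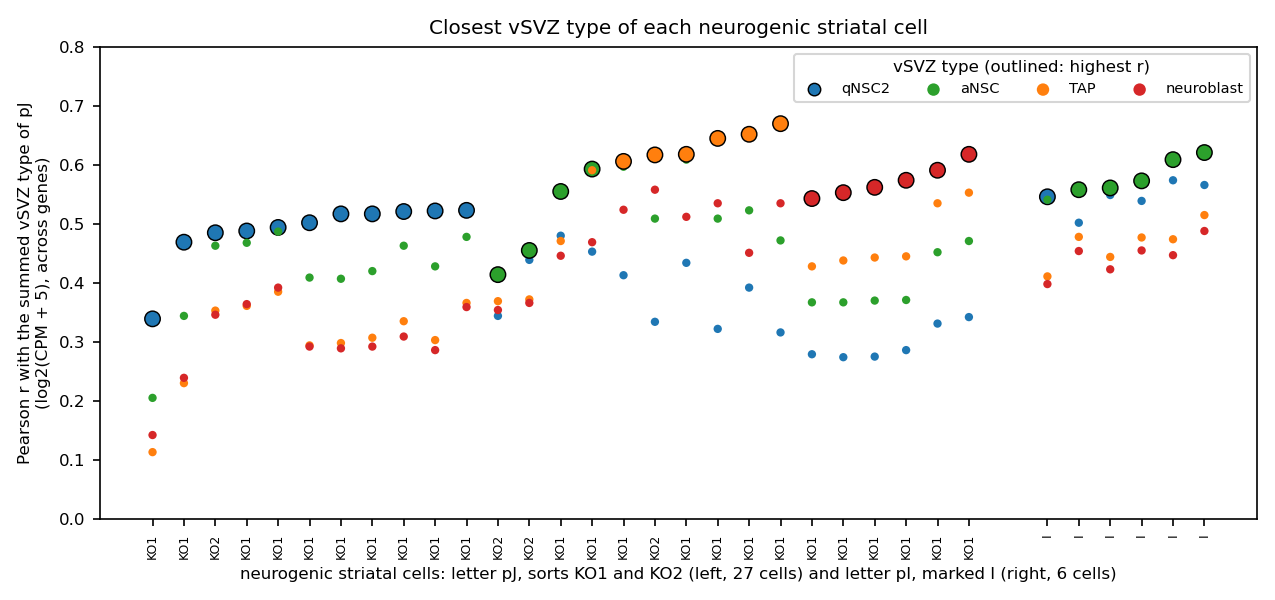
Pearson r (y axis, across genes on the log2(CPM + 5) scale) of each neurogenic striatal cell (x axis) with the summed profile of each vSVZ type of pJ; the large outlined point is the closest type. The 27 cells of pJ fall to all 4 stages (11, 4, 6 and 6), while 5 of the 6 cells of pI fall to aNSC.

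Within the 27 cells the stage genes moved apart as they do along the vSVZ lineage. The astrocyte list summed to 20700 CPM in the neurogenic striatal cells closest to qNSC2, 6240 in those closest to aNSC, 1750 in those closest to TAP and 679 in those closest to neuroblasts. The vSVZ cells labelled with these stages had 21900, 9390, 623 and 253 CPM. The neuroblast list ran the other way, with 1270, 2540, 6860 and 25800 CPM in the neurogenic striatal cells of the 4 stages and 681, 3670, 7810 and 21000 CPM in the vSVZ types. These values describe the sorting of cells by correlation, which used the same genes.

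Single genes show how far each stage went. Aldoc, a glycolytic enzyme of astrocytes, stood at 3730 CPM in the neurogenic striatal cells closest to qNSC2 and at 235, 11.1 and 12.7 CPM in the later stages. Egfr, the EGF receptor of activated stem cells, had 153, 995, 429 and 0 CPM over the 4 stages. Mki67, a marker of dividing cells, was found in the TAP stage alone, in 5 of 6 cells at 1260 CPM. Top2a, the topoisomerase of dividing chromosomes, had 1430 CPM in all 6 cells of that stage, 53.4 CPM in the aNSC stage and 0 in the first and last stage. Dcx, a microtubule protein of migrating neuroblasts, had 0, 37.7, 162 and 1500 CPM, with counts in 6 of 6 cells of the neuroblast stage. Stmn2, a tubulin-binding protein of young neurons, followed with 0, 0, 89.8 and 2770 CPM. At 2 days, striatal cells with the genes of division and of neuroblasts were thus present in the pJ sorts. Cells that arose in the striatum and cells that came there from the vSVZ cannot be told apart in these data.

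The summed profile of the 27 cells, a mixture of stages, was closest to aNSC (r = 0.694), with TAP at 0.692, neuroblasts at 0.651 and qNSC2 at 0.636. The order of the first pair is within 0.002 and changes with the measure (Spearman rho 0.651 for TAP and 0.65 for aNSC). The summed striatal and vSVZ astrocytes of pJ at 2 days lay at 0.648 and 0.578. A mix of the 4 vSVZ types in the proportions and depths of the 27 cells, added after seeing the data, reached r = 0.777. This matched mix and the rule of lying outside all 4 types are used below to look past stage.

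Of the 4 vSVZ types, only qNSC2 has a second sum at 2 days, in pI; the other sums of aNSC, TAP and neuroblasts are from naive pJ and pM, so their tests have no matching 2-day replicate on the vSVZ side. Counts were summed per cell type, letter and treatment into 21 sums and fitted in edgeR (quasi-likelihood test, Benjamini-Hochberg adjusted p at 0.05) with terms for type, genotype and treatment. As types may have been named from these transcriptomes, p-values between them are descriptive. Against qNSC2, 4 of 18363 genes passed (0.0218%), all higher in neurogenic striatal cells, so 0 were lower (0.0%), and 1123 genes had an unadjusted p under 0.05 (6.12%). Against aNSC 0 genes passed (0.0%; 1109 genes, 6.04%, had an unadjusted p under 0.05, and DESeq2 called 372). Against TAP 96 passed (0.523%; 82 higher, 0.447%, and 14 lower, 0.0762%), and against neuroblasts 692 (3.77%; 666 higher, 3.63%, and 26 lower, 0.142%). With the letter as a replicate block 19 genes were called against qNSC2 and 2 against aNSC. Without replicate pM 9 were called against qNSC2. Leaving out pI leaves 1 sum of neurogenic striatal cells, so the group then has no replicate.

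The 4 genes called against qNSC2 belong to neuroblasts and to division. Dlx6os1 had 350 CPM in neurogenic striatal cells of pJ (9 of 27 cells), against 0.104 CPM in qNSC2, and 0 in both groups of pI (edgeR log2 difference 11.06 ± 1.62 SE, adjusted p = 0.0182). Dcx had 362 CPM in 12 of 27 neurogenic striatal cells and no count in any of 67 qNSC2, at least 1160-fold higher against a floor of 3 counts in the group, and 0 in both groups of pI (11.18 ± 1.89, edgeR adjusted p = 0.0401). Stmn4, a tubulin-binding protein of neurons, had 149 CPM in neurogenic striatal cells (9 cells) and 0.208 CPM in qNSC2 (7.97 ± 1.24, edgeR adjusted p = 0.0182). In pI it was found in 1 neurogenic striatal cell (21.1 CPM) and in no qNSC2. Spc25, a kinetochore protein, had 62.0 CPM (6 cells) in neurogenic striatal cells and 0 in qNSC2, at least 199-fold higher (10.91 ± 1.83, edgeR adjusted p = 0.0498), and in pI 9.68 CPM from 1 neurogenic striatal cell and 0 in qNSC2. The vSVZ TAP and neuroblasts of pJ carried the same genes. Dcx had 131 CPM in TAP and 562 CPM in neuroblasts, Dlx6os1 124 and 814, Stmn4 414 and 1240, and Spc25 528 and 0.0858. Without the cells of sort KO1, which leaves 4 neurogenic striatal cells in pJ, none of the 4 passed (edgeR adjusted p 0.0687 for Dcx, 0.124 for Dlx6os1, 0.0738 for Stmn4 and 0.136 for Spc25). Leaving out pI leaves 1 sum of neurogenic striatal cells and is no check of these calls. Without pM all 4 passed. With cells of 50000 counts or more Dcx and Spc25 did not (edgeR adjusted p = 0.0941 for both), and with these groups alone none of the 4 was called: Stmn4 had 0.381 and Spc25 1.0, and Dcx and Dlx6os1 were not among the genes tested.

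Genes outside every stage were taken by size, without a test: at 20 CPM or more, past 4-fold against aNSC and past 2-fold against each of the 4 types, with counts in at least 25% of the cells of the higher group. Past 4-fold against aNSC alone, 912 of 9411 genes were higher (9.69%) and 272 lower (2.89%) in neurogenic striatal cells. Outside all 4 types lay 262 higher genes (2.78%) and 52 lower genes (0.553%). The highest by ratio to aNSC was Gpm6a, a membrane glycoprotein of neurites that astrocytes also express. It had 648 CPM in neurogenic striatal cells (26 of 27 cells; median cell 566 CPM, highest 2100), against 79.4, 17.9, 38.5 and 41.8 CPM in qNSC2, aNSC, TAP and neuroblasts (log2 ratio to aNSC 4.83, counting interval 4.50 to 5.17). Its level was 1050, 72.2, 289 and 677 CPM in the neurogenic striatal cells of the 4 stages, so it did not follow 1 stage.

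Pax6, a transcription factor of neural progenitors, had 644 CPM (23 cells; median cell 374 CPM, highest 2280), against 134, 62.0, 151 and 79.1 CPM. Summed over the cells of each stage it lay at 567, 279, 900 and 666 CPM, above every vSVZ type at each. These sums rest on few cells. Single cells ran from 0 to 2278 CPM in the TAP stage and from 0 to 2275 CPM in the neuroblast stage. In pI the difference to qNSC2 was smaller for Gpm6a and ran the other way for Pax6: neurogenic striatal cells had 40.5 CPM of Gpm6a and 102 CPM of Pax6, against 21.6 and 130 CPM in qNSC2. Pax6 was lower in striatal than in vSVZ astrocytes in every pair. The log2 ratio was -0.186 in pJ at 2 days, -1.595 in naive pJ and -0.6157 in naive pM. On GRCm38 (GENCODE M21) Gpm6a lies at chr8:54954843-55060871 and Pax6 at chr2:105668900-105697364, and Gpm6a overlaps other genes on the same strand. mt-Rnr1, a ribosomal RNA of mitochondria, had 394 CPM in 27 of 27 cells, against 19.1, 23.8, 28.2 and 58.8 CPM. The mitochondrial share given above was also higher in neurogenic striatal cells, but it ranked the vSVZ types in another order. In pI the log2 ratio of mt-Rnr1 to qNSC2 was 1.34, with median mitochondrial shares of 0.659% and 0.592%. Cntln, a centrosome protein, had 294 CPM (16 cells), against 31.9, 15.5, 75.5 and 10.9 CPM. Otud4, a deubiquitinase, had 146 CPM (19 cells), against 7.07, 5.41, 28.8 and 15.4 CPM. Others among the 12 highest genes were Igsf9, 2810049E08Rik, Max, Mier3, Utp14b, Wdtc1 and 9330182L06Rik. A single cell held 50.6% of the counts of Igsf9, a cell adhesion protein (331 CPM, 13 cells), and the KO2 cells held none.

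Among the lower genes, Tmem176b, a membrane protein, had 15.9 CPM in neurogenic striatal cells, against 162, 224, 41.6 and 137 CPM in the vSVZ types. In pI the order was the reverse, with 555 CPM in neurogenic striatal cells and 200 CPM in qNSC2. Lgals1, a galectin, had 20.8 CPM, against 180, 239, 104 and 49.6 CPM, and in pI 702 and 578 CPM. Ifi27, an interferon-induced gene, had 15.5 CPM, against 239, 172, 89.2 and 92.8 CPM. Wdr54, a WD repeat protein, had 4.54 CPM, against 135, 76.7, 92.0 and 65.5 CPM, and in pI 0 and 7.39 CPM. Rps4l, a copy of a ribosomal protein gene, is annotated as a transcribed processed pseudogene. Near-identical copies lie in the genome, so its counts are uncertain. Rps4l had 1.13 CPM, against 24.8, 59.7, 14.5 and 43.3 CPM, and in pI 0 and 52.9 CPM. The other 7 of the 12 lowest were Gap43, Narfl, Nudt19, Gm9625, Abhd17a, Crip2 and Asb6. The 262 higher genes were longer (median exon length 5.81 kb) and the 52 lower genes shorter (2.29 kb) than all genes at the floor (4.70 kb).

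The same genes were then read in pairs of groups that the rule had not used. Between striatal and vSVZ astrocytes of pJ at 2 days, 241 of the 262 higher genes (92.0%) were higher in striatum and 175 were past 2-fold, where 54.9% of all genes lay above 0 and 23.2% past 2-fold. The median log2 ratio was 1.41 against 0.16 over all genes. Of the 52 lower genes, 47 were lower in striatum and 35 past 2-fold (45.1% and 14.9% of all genes), with a median of -1.31. In naive astrocytes the pattern was not seen: 127 (48.5%) of the 262 were higher in striatum in pJ (51.7% of all genes) and 124 (47.3%) in pM (50.2%), with medians of -0.0094 and -0.0171. Between neurogenic striatal cells and qNSC2 of pI, 92 (35.1%) were higher (50.2% of all genes), 32 past 2-fold in the same direction and 72 in the opposite direction, where 22.4% of all genes lay past 2-fold each way. The carry was thus within the letter and time that chose the genes, in astrocytes that share their sorts, and neither in naive astrocytes nor in pI. The pI pair does not match stage, as most of its neurogenic striatal cells were closest to aNSC, and its genotype is TiCY.

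**Figure D2:**
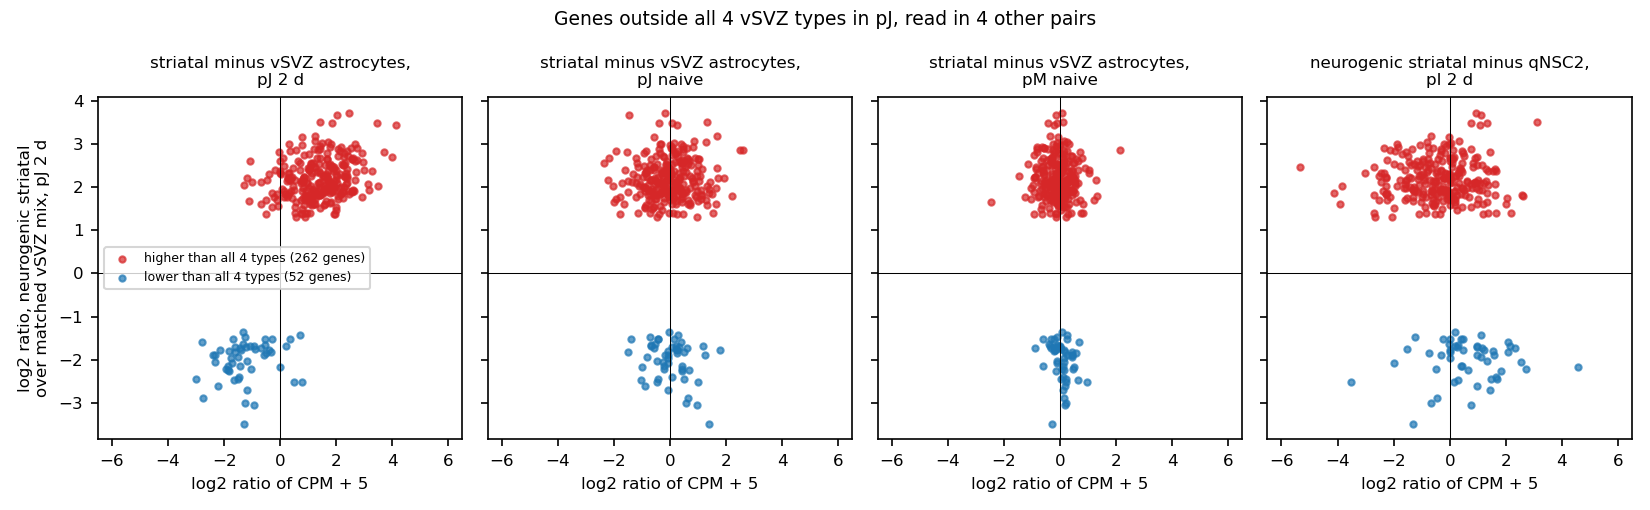
Log2 ratio of each gene outside all 4 vSVZ types (red, 262 higher; blue, 52 lower) in 4 other pairs of groups (x axes) against its log2 ratio to the matched vSVZ mix (y axis). The red and blue genes separate along the x axis in the astrocytes of pJ at 2 days (241 of 262 and 47 of 52 on the same side) and mix in naive pJ, naive pM and pI.

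Genes that held in pI as well were few, and were chosen after their values were seen. As above, the pI pair does not match stage and differs from pJ in genotype. Sema4c, a semaphorin, had 170 CPM in neurogenic striatal cells of pJ (19 cells), against 2.6, 12.8, 9.40 and 16.6 CPM in the vSVZ types, and 16.7 CPM in neurogenic striatal cells against 5.12 CPM in qNSC2 of pI. Zic2, a zinc finger transcription factor of forebrain patterning, had 35.5 CPM (9 cells), against 10.6, 4.92, 3.99 and 3.78 CPM, and in pI 78.7 CPM (4 of 6 cells) against 8.53 CPM. Striatal astrocytes of pJ at 2 days had 34.6 CPM of Zic2 and vSVZ astrocytes 4.39 CPM, while naive qNSC2 had 0 in pJ and in pM. Slc25a40, a mitochondrial carrier, had 93.0 CPM (11 cells), against 3.69 to 12.1 CPM in the vSVZ types, and in pI 27.3 against 6.83 CPM. 2810049E08Rik, a gene with no known role given in the files, had 142 CPM (10 cells), against 4.18 to 11.1 CPM, and in pI 52.3 CPM (4 of 6 cells) against 1.71 CPM.

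Set against the 4 types of naive mice instead, most of these genes did not stay outside. Of the 262 higher genes, 53 (20.2%) were past 2-fold above each naive type of pJ, where 4.24% of all genes were, 59 (22.5%) above those of pM (3.74%) and 25 (9.54%) above both (1.39%). The genes were chosen for high levels in the same neurogenic striatal cells, so these shares are a description. Pax6, Wdtc1, Igsf9 and 2810049E08Rik are among the 25, and Gpm6a is not. Naive qNSC2 had 909 CPM of Gpm6a in pJ and 429 in pM. The rule also chose the 262 genes for low levels in the 2-day vSVZ types, so their ratios to naive cells are a description that the choice bears on. The median log2 ratio of 2 days over naive was -1.01 in qNSC2, -0.935 in aNSC, -0.819 in TAP and 0.0381 in neuroblasts (0.0364, 0.172, 0.0799 and 0.421 over all genes). In striatal astrocytes it was 0.574 and in vSVZ astrocytes -0.706. Of the 52 lower genes 3 were past 2-fold below each naive type of pJ (0.298% of all genes), 5 below those of pM (0.425%) and 0 below both (0.0106%). Treatment, sort and library cannot be told apart in these ratios, since naive and 2-day cells carry different sort names, and their genotype labels differ.

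Patterning factors lay on both sides of the matched mix. Of 45 listed genes 38 were tested, and 0 were called against qNSC2, aNSC or TAP (0.0218%, 0.0% and 0.523% of all genes were; with the replicate block Dlx1 was called against qNSC2, adjusted p = 0.0429 in edgeR), while Lhx2 and Emx2 were called higher than in neuroblasts (3.63% of all genes were; without pI the edgeR adjusted p of Emx2 was 0.0526). Of 23 at the floor, 10 were past 2-fold above the matched mix and 2 below it (19.1% and 11.2% of all genes), with a median log2 ratio of 0.895 against 0.115 over all genes and 0 in pI. Dlx1, a homeobox factor of interneuron progenitors, had 483 CPM in neurogenic striatal cells (13 cells), against 3.74, 53.8, 581 and 930 CPM in the vSVZ types, and so lay within the range of the lineage; in pI it had 3.96 against 0 CPM. Meis2, a homeobox factor of striatal and olfactory neurons, had 566 CPM in 27 of 27 cells, against 231, 138, 256 and 945 CPM, and in pI 273 against 348 CPM. Foxp2, a forkhead factor of striatal projection neurons, had 69.6 CPM (6 cells; 315 CPM in the neuroblast stage), against 2.39, 0, 1.14 and 36.9 CPM, and in pI 0 against 8.53 CPM, the other way. Tshz1, a zinc finger factor, had 132 CPM (22 cells), against 20.8, 30.0, 31.9 and 230 CPM, and in pI 102 against 36.4 CPM. Nr2f1, an orphan nuclear receptor, had 108 CPM, against 288, 289, 164 and 142 CPM, and in pI 141 against 260 CPM.

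Six3 was absent from the counts of all 27 neurogenic striatal cells of pJ and of the 6 of pI. In pJ, 0 of 27 allows a share of up to 11.1% of cells with a count (3 cells of 27), which does not limit the cells that express the gene at a low level. It had 21.9 CPM in qNSC2 (24 of 67 cells), 27.3 in aNSC (9 of 24), 5.98 in TAP (4 of 21) and 0 in neuroblasts, and in pI 34.1 CPM in qNSC2 (3 of 5). Against the floor of 3 counts over the group, 1.13 CPM, neurogenic striatal cells were at least 19.3-fold lower than qNSC2 and at least 24.1-fold lower than aNSC. Bounds against single types, here and for Six3os1 below, do not match stage. The matched mix had 13.6 CPM of Six3 (log2 ratio -1.90), and Six3 was not among the genes outside all 4 types. The edgeR log2 difference to qNSC2 was -10.50 ± 2.07 (SE), which did not pass (adjusted p = 0.106). Six3os1 went with it: it had 0 in all 33 neurogenic striatal cells of both letters, against 79.4, 22.4, 3.13 and 0 CPM in the vSVZ types of pJ and 86.5 CPM in qNSC2 of pI, at least 70.0-fold lower than qNSC2 of pJ (-11.84 ± 2.28, edgeR adjusted p = 0.101). The genes overlap on opposite strands, and whether reads were counted by strand is not given in the sources used here. Neither gene was at 0 in striatal astrocytes. Six3 had 3.73 CPM in striatal and 24.1 CPM in vSVZ astrocytes of pJ at 2 days, 12.8 and 27.3 CPM in naive pJ, and 16 and 18.7 CPM in naive pM. Six3os1 had 26.8 and 43.6, 56.2 and 87.7, and 52.7 and 61.5 CPM. Nr2f2, another orphan nuclear receptor, was also at 0 in neurogenic striatal cells of both letters, against 10.8, 12.5, 1.71 and 19.9 CPM in the vSVZ types of pJ and 12.5 CPM in qNSC2 of pI.

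**Figure D3:**
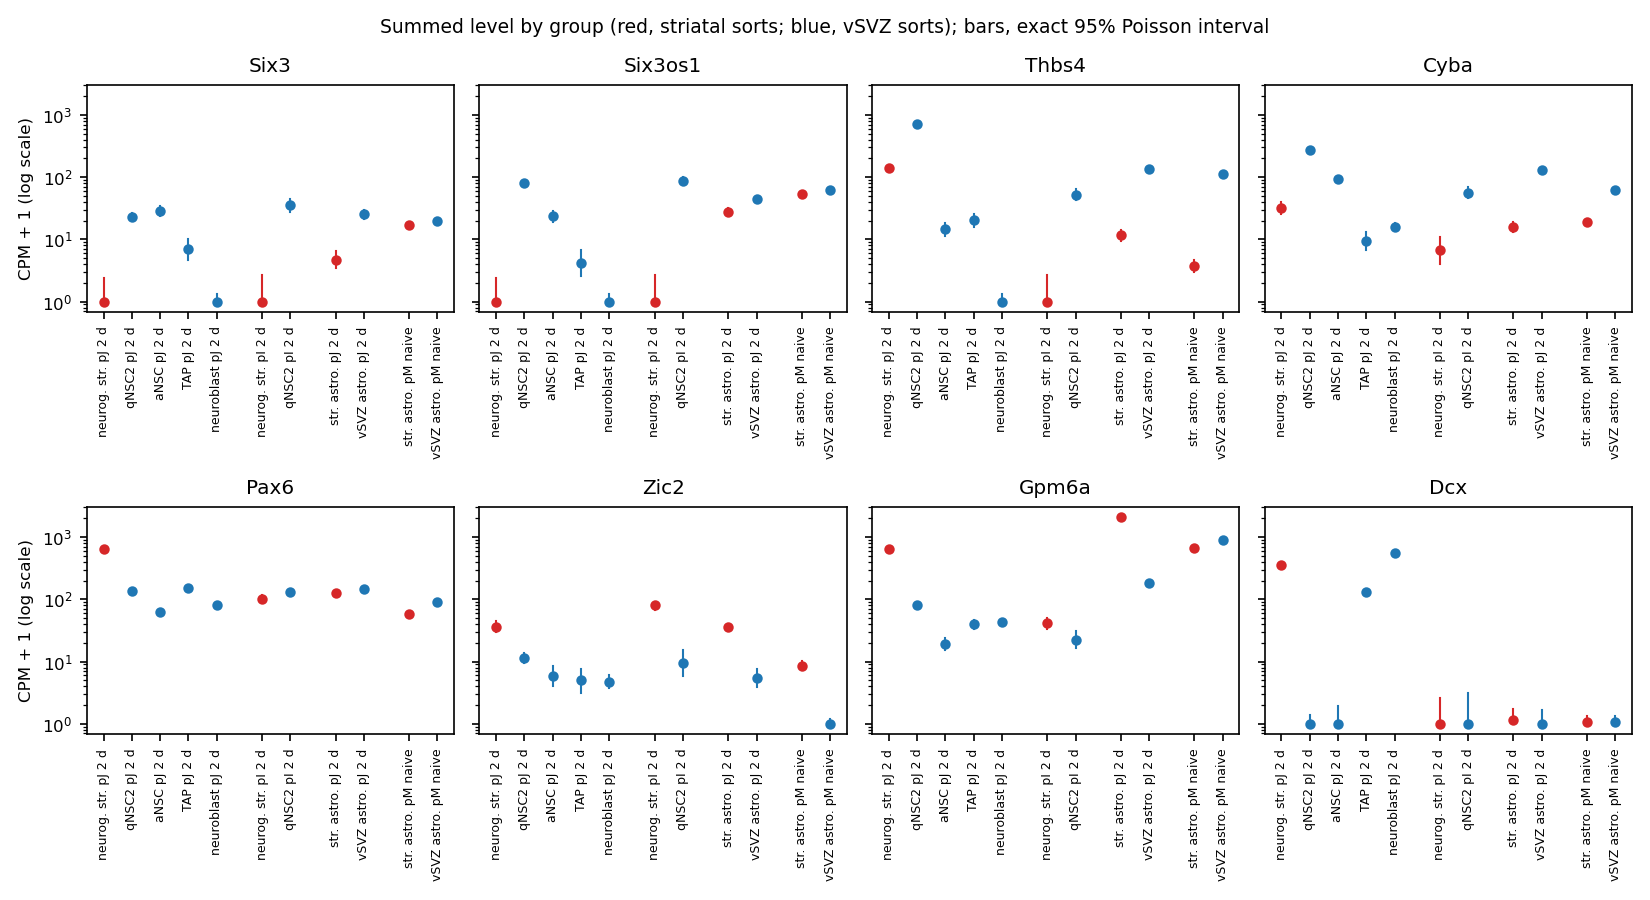
Summed level (CPM + 1, log axis) of 8 genes in neurogenic striatal cells and the 4 vSVZ types of pJ, in pI, and in striatal and vSVZ astrocytes of pJ at 2 days and of naive pM; bars are exact 95% Poisson intervals, which cover counting error only. Six3 and Six3os1 sit at 0 in neurogenic striatal cells of both letters, and Pax6 sits at 644 CPM in pJ, above all 4 vSVZ types.

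Thbs4, Cyba and S100a6 were lower in neurogenic striatal cells than in qNSC2 of both letters and in striatal than in vSVZ astrocytes of all 3 pairs, but not lower than in every later stage. The pI pair does not match stage, as 5 of its 6 neurogenic striatal cells were closest to aNSC but are set against qNSC2. In pJ each of these genes was lower in aNSC than in qNSC2, and the part of stage in the pI values was not tested. Thbs4, a secreted matrix protein of vSVZ stem cells and astrocytes, had 140 CPM in neurogenic striatal cells of pJ (8 cells; 349 CPM in the stage closest to qNSC2), against 707, 13.5, 19.1 and 0 CPM in qNSC2, aNSC, TAP and neuroblasts. In pI it had 0 against 51.2 CPM. Striatal astrocytes had 10.7 CPM against 136 CPM in vSVZ astrocytes of pJ at 2 days, 36.3 against 90.5 in naive pJ and 2.67 against 112 in naive pM. Cyba, a subunit of NADPH oxidase, had 30.6 CPM in neurogenic striatal cells (10 cells; 51.4 CPM in the stage closest to qNSC2), against 276, 91.7, 8.55 and 15 CPM in the vSVZ types, in pI 5.72 against 55.2 CPM, and in the 3 astrocyte pairs 14.6 against 131, 29.7 against 92.1 and 18.3 against 60.4 CPM. S100a6, a calcium-binding protein, had 81.7 CPM in neurogenic striatal cells against 619, 88.3, 4.27 and 25 CPM in the vSVZ types, and in pI 34.7 against 493 CPM. Its astrocyte pairs gave 60.2 against 322, 60.5 against 112 and 50.5 against 72.6 CPM. These genes, named after their values were seen, are 3 of 24 that were past 2-fold below the matched mix, past 2-fold lower in pI and lower in striatum in all 3 astrocyte pairs, out of 834 genes in the first step. At the floor, 1056 of 9391 genes lay past 2-fold below the mix and 1791 above it, and the first step held fewer. In pI, 107 of the 834 (12.8%) were past 2-fold the same way and 269 (32.3%) the opposite way. Over all genes 22.4% lay past 2-fold each way in pI, so agreement was below that share. The corresponding higher genes were 48 of 1145, with 183 (16%) the same way and 338 (29.5%) the opposite way in pI, among them Nfat5, a factor of osmotic stress, Olig2, a basic helix-loop-helix factor of oligodendrocyte lineage and reactive progenitors, and Slc25a40.

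Crym, a thyroid hormone-binding protein of striatal and other astrocytes, was at 0 in all neurogenic striatal cells of both letters, against 299 CPM (13 of 67 cells) in qNSC2 of pJ and 0 in those of pI. The later vSVZ stages, to which 16 of the 27 cells were closest, had 0.492, 0.855 and 0.0858 CPM. Striatal astrocytes of pJ at 2 days had 245 CPM and vSVZ astrocytes 407 CPM. Unc13c, a synaptic priming protein that striatal astrocytes also express, had 53.7 CPM in neurogenic striatal cells (5 cells), against 2.39, 0.246, 0 and 0.343 CPM in the vSVZ types, and 180 CPM against 28.0 CPM in naive striatal and vSVZ astrocytes of pJ. In neurogenic striatal cells of pI it had 0.880 CPM, against 0.569 CPM in qNSC2.

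Reactive astrocyte genes, which injury raises in astrocytes, were lower in the neurogenic striatal cells than in the matched vSVZ mix. Of 11 members at the floor 0 were past 2-fold higher and 10 lower (19.1% and 11.2% of all genes), with a median log2 ratio of -2.20 (0.115 over all genes). In pI the median was -1.23. Striatal over vSVZ astrocytes also had negative medians for this list: -1.5 in pJ at 2 days, -1.02 in naive pJ and -0.0861 in naive pM. The lower level was thus not particular to the neurogenic striatal cells of pJ. Vim, an intermediate filament of stem cells and reactive astrocytes, had 197 CPM in neurogenic striatal cells against 1050 CPM in the mix, and in pI 1050 against 2830 CPM in qNSC2. Serpina3n, a secreted protease inhibitor of reactive astrocytes, had 0.756 CPM against 94.0 CPM, and Anxa2, a membrane-binding annexin, 25.3 against 269 CPM. In the same mix made from naive cells, Vim stood at 207 CPM in pJ and 204 in pM, and Serpina3n at 0 and 1.89 CPM. The list's median log2 ratio of the neurogenic striatal cells over the naive mix was -0.743 in pJ and -0.342 in pM, and that of the 2-day mix over the naive mix was 1.19 and 1.75. Gfap, the filament protein of astrocytes, lay between, with 525 CPM in neurogenic striatal cells, 1840 CPM in the 2-day mix, and 94.8 and 76.0 CPM in the naive mixes. No member of the list was called by edgeR against qNSC2 (18 tested; 0.0218% of all genes called).

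Immediate early genes, which cells raise within minutes of a stimulus, dissociation included, showed the opposite pattern in pJ. Of 15 members at the floor 11 were past 2-fold above the matched mix and 0 below (19.1% and 11.2% of all genes; median log2 ratio 1.44 against 0.115), and the median over the naive mix was 1.98 in pJ and 1.74 in pM. Egr1, a zinc finger factor, had 1500 CPM in neurogenic striatal cells (16 cells), against 178 CPM in the 2-day mix and 353 and 299 CPM in the naive mixes. Fosl2, a Fos family member, had 32.5 CPM, against 3.81, 0 and 2.01 CPM. In pI the median of the list was -0.0193, and Egr1 had 475 CPM in neurogenic striatal cells against 902 CPM in qNSC2. Striatal over vSVZ astrocytes gave 1.14 in pJ at 2 days and 0 and 0.0178 in naive pJ and pM.

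**Figure D4:**
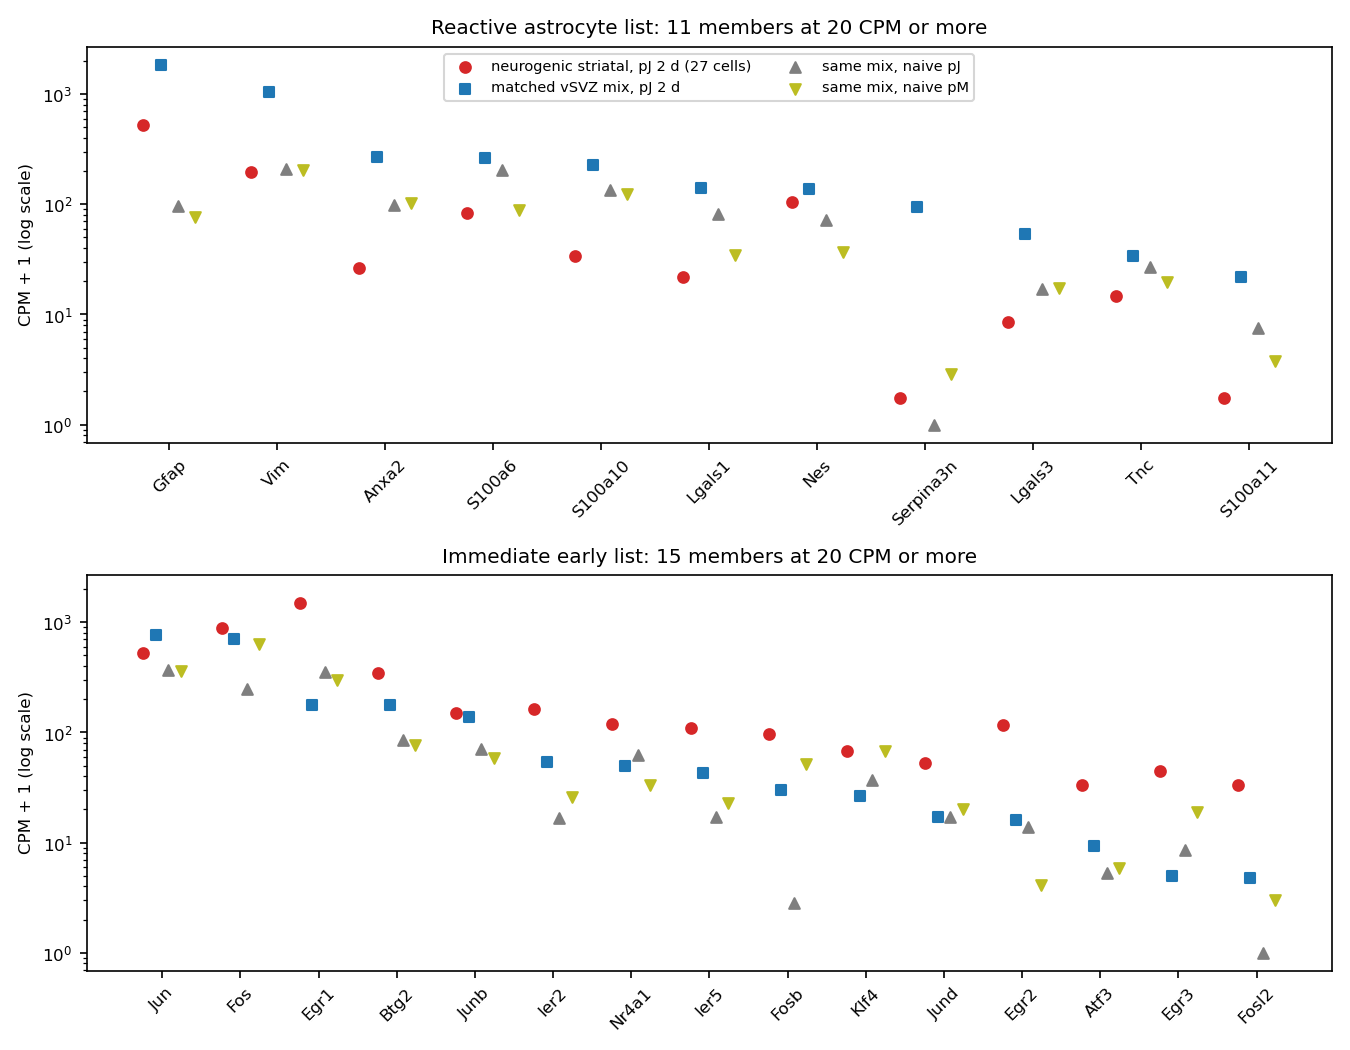
Level (CPM + 1, log axis) of the reactive astrocyte members (top) and immediate early members (bottom) in neurogenic striatal cells of pJ, the matched vSVZ mix at 2 days, and the same mix from naive pJ and pM. Vim sits at 197 CPM in the striatal cells and 1050, 207 and 204 CPM in the 3 mixes; 11 of 15 immediate early members are past 2-fold above the 2-day mix.

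Signalling and guidance genes are given next. Of 21 guidance and migration genes at the floor, 9 were past 2-fold above the mix and 1 below (19.1% and 11.2% of all genes; median 0.887 log2, and -0.228 in pI). Dcc, a netrin receptor, had 49.5 CPM in neurogenic striatal cells (11 cells), against 0.246 to 7.21 CPM in the vSVZ types. Slit2, a secreted guidance cue, had 39.7 CPM against 9.10 CPM in the mix, and in pI 20.2 against 5.12 CPM. For striatal over vSVZ astrocytes the log2 ratio of Slit2 was 0.565 in pJ at 2 days, -1.981 in naive pJ and -2.445 in naive pM. For Dcc it was 0.5693, 2.494 and 2.128 in these pairs. Among 10 Notch genes at the floor 4 were higher and 1 lower against the same background shares of 19.1% and 11.2% (median 0.83; -0.518 in pI), and Hes5, a Notch target, had 340 CPM against 68.9 CPM in the mix, and in pI 0 against 8.53 CPM. Notch1, the receptor, had 308 CPM against 226 CPM. Id4, an inhibitor of basic helix-loop-helix factors, had 586 CPM against 126 CPM, and in pI 12.8 against 56.3 CPM. Of 30 ribosomal protein genes 9 were lower than the mix past 2-fold (11.2% of all genes, median -0.787), while in pI the median was 0.136. For striatal over vSVZ astrocytes the ribosomal median was -1.13 in pJ at 2 days, -0.4 in naive pJ and -0.302 in naive pM. Id4 and Hes5 were also higher in striatal than vSVZ astrocytes of pJ at 2 days (log2 ratio 2.66 and 1.54). In naive pJ both were lower (-0.521 and -0.836), while in naive pM Id4 was lower (-0.473) and Hes5 higher (0.478).

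By the edgeR test, list members were called mainly against the later stages. Against qNSC2, Dcx and Dlx6os1 of 20 neuroblast genes were the list members called (5 of the 20 with the replicate block; list median log2 difference 3.86, against -0.282 over all genes). Against TAP, Aldh1l1, Aldoc, Slc1a3 and Acsbg1 of 18 astrocyte genes rose (0.447% of all genes; list median 3.58 against 0.0858), and 8 did with the block. Against neuroblasts 14 of 18 astrocyte, 9 of 18 quiescent stem cell, 6 of 16 Notch and 6 of 15 EGF and FGF genes rose (3.63% of all genes), and Sox4, a factor of young neurons, fell.

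**Figure D5:**
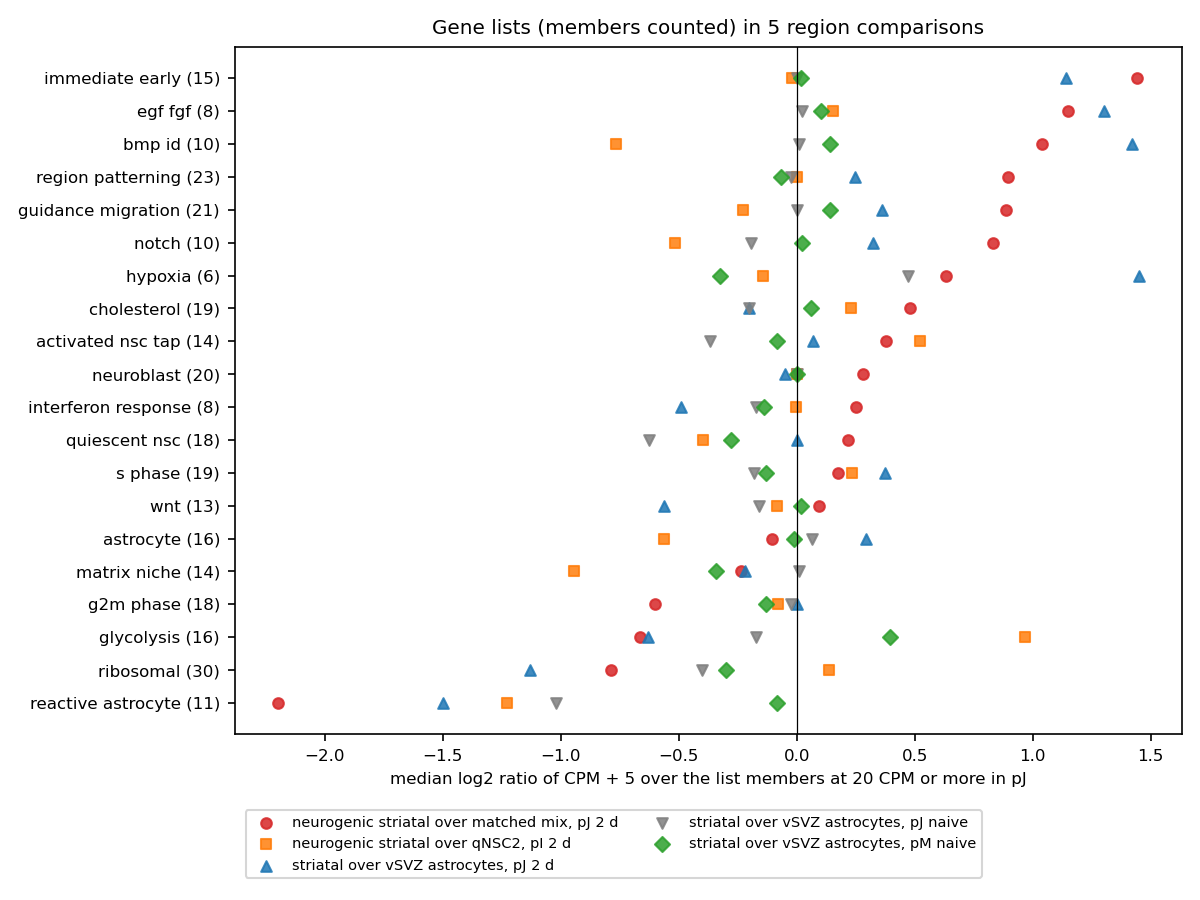
Median log2 ratio of CPM + 5 of each gene list (rows, with the members at 20 CPM or more) for neurogenic striatal cells over the matched mix, in pI over qNSC2, and for striatal over vSVZ astrocytes. The reactive astrocyte list lies lowest for the neurogenic striatal cells (-2.20) and the immediate early list highest (1.44).

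The last question was whether genes that tell region in naive astrocytes also do so in the neurogenic cells. No gene was called by edgeR between striatal and vSVZ astrocytes over the 3 pairs (0.0%; 399 genes, 2.17%, with an unadjusted p under 0.05, and 56 called by DESeq2). The difference between the neurogenic pair's region difference (neurogenic striatal minus qNSC2) and that of astrocytes called 0 genes either (0.0%; 756 genes, 4.12%, with an unadjusted p under 0.05, 168 called by DESeq2 and 2 by edgeR with the replicate block). By size, 74 genes (0.985% of 7514) were past 2-fold higher in striatum in both naive pairs and 46 (0.612%) lower. Of the 74, 61 (82.4%) were higher in striatum in the astrocytes of pJ at 2 days (54.9% of all genes), and of the 46, 26 (56.5%) were lower there (45.1%), with 11 past 2-fold the opposite way. In neurogenic striatal cells 35 (47.3%) were above the matched mix, where 54.6% of all genes were, and in pI 39 (52.7%) were above qNSC2 (50.2%). Of the 46 lower genes, 22 (47.8%) were below the mix (45.4% of all genes) and 22 in pI (49.8%). Slc38a1, a glutamine transporter, was the 1 gene called when naive astrocytes were fitted alone (edgeR log2 difference -6.68 ± 0.90 SE, adjusted p = 0.00827), with 0 and 0.124 CPM in striatal against 13.9 and 7.77 CPM in vSVZ astrocytes of pJ and pM. It had 199 CPM in neurogenic striatal cells, against 193, 227, 138 and 122 CPM in the vSVZ types, and 271 against 254 CPM in pI, so its region difference in astrocytes was not seen between these cells.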

How the data were processed

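RNA was sequenced from single cells by Smart-seq3 as the transcriptome part of scNMT-seq, per the labels' protocols. The authors deposited raw counts of reads per gene and cell, aligned with STAR and counted with featureCounts on GRCm38 (mm10), per the submitters' processing notes. Those sources give no tool version, annotation, strand setting or cell filter. The table held 2584 cells and 35606 gene identifiers, 35455 with a symbol in GENCODE M21, of which 47 share one; 1981 cells matched a label and the other 603 were not used. Samples were grouped by cell type, letter and treatment, and region was read from sort names.

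Counts were summed per cell type, letter and treatment (at least 3 cells). CPM ratios had 5 CPM added; intervals are exact 95% Poisson or binomial and cover counting error only, as does the floor of 3 counts, and reads are not independent molecules. edgeR 4.0.16 (TMM, filterByExpr, 12 residual and 9.551 prior degrees of freedom), limma 3.58.1 and DESeq2 1.42.0 ran in R 4.3.3, the rest in Python 3.11.15; the fit was tested on simulated data. A p-value rests on the spread between sums of the same type, shared over the 7 cell types of the fit, and that spread may be technical. Naive and 2-day sums of the same letter enter as separate sums, and neurogenic striatal cells come from only 2 letters. Neurogenic striatal cells and qNSC2 of the same letter may be paired, because a letter is a biological replicate in the series' design text. The main fit has no letter term; a replicate block by letter was an alternative. Deviations from the group means correlated at 0.152 within a letter; with 2 letters the value across letters is its mirror image and adds nothing.

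Genes named were the 12 highest and lowest of those outside all 4 types, genes called against qNSC2, patterning genes at 20 CPM or more, checks of sort and genotype, and up to 4 examples a list; others are said to be chosen after their values were seen. Of the 12 highest, 1 is not reported here. Members and lists were chosen with earlier results of these data known. The matched mix, the naive mix, the reading against naive types and the genes that held in 5 comparisons were added after seeing the data.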

Additional observations from a re-analysis of the deposited data

How the results depend on the processing

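Counts of genes called moved with tool and filter, and the cause was not tested. Against qNSC2 (4 genes) the count was 350 with DESeq2, 180 with no filter, 19 with the replicate block, 9 with no covariates, 2 with these groups alone, 96 with sums of 10 cells or more, 17 with the KO sorts split, 2 with cells of 50000 counts or more, 1 without the cells of sort KO1, and 9 to 49 leaving out replicates. Against aNSC (0) it was 372 with DESeq2, 78 with no filter, 36 with 10 cells, 4 without sort KO1, 3 with DESeq2's size factors, 2 with the replicate block or the sorts split, 1 with no covariates or with cells of 50000 counts, and 2 to 2 leaving out replicates. Against TAP (96) it was 867 with DESeq2, 424 with no filter, 167 with 10 cells, 3 with these groups alone, and 43 to 65 leaving out replicates. Against neuroblasts (692) it was 1956 with DESeq2, 1189 with no filter, 6 with these groups alone, and 410 to 665 leaving out replicates. For striatal against vSVZ astrocytes (0) it was 56 with DESeq2, 11 with no filter, 1 with these groups alone or without sort KO1, and 0 to 1 leaving out replicates. For the difference of both region differences (0) it was 168 with DESeq2, 83 with no filter, 25 with 10 cells, 2 with the block, 1 with these groups alone, the sorts split or KO1 left out, and 0 to 7 leaving out replicates. Leaving out replicate pJ could not be fitted for neurogenic striatal cells, with no residual degrees of freedom. Leaving out pI, or using sums of 10 cells or more, leaves 1 sum of neurogenic striatal cells. Their counts under these settings rest on the spread of the other types and are no check. The block raised the calls of list members against qNSC2 to 6 from 2 without it.

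The closest type was TAP with a pseudocount of 1 CPM (r = 0.656), with sort KO1 alone (0.686) and by Spearman rho (0.651), and the matched mix reached 0.777. Genes past 4-fold against aNSC (1184) numbered 251 with a pseudocount of 20 CPM, 715 with a floor of 50 CPM, 2824 with sort KO2 alone and 371 against the mix. Genes outside all 4 types (314) numbered 71 with a pseudocount of 20 CPM, 1857 with KO2 alone and 25 when the naive types were added. Region genes of astrocytes (0) were 1 in the naive fit and 120 by the 2-fold rule. With KO2 alone the log2 ratio to aNSC reversed for Igsf9 (-1.98), Dlx2 (-0.0616) and Meis1 (-0.82).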
